A study of Homo sapiens with 8 samples.

Results

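The Notch genes described here are 10 genes in HMLE, a human mammary epithelial line made immortal by introduced genes: the ligands JAG1, JAG2 and DLL1, the receptors NOTCH1, NOTCH2 and NOTCH3, the receptor-modifying enzyme LFNG, and the target genes HES1, HEY1 and NRARP. They hold 17 of the 48175 RefSeq transcripts in the deposited expression table, which covers 25166 named genes. The 10 genes were picked by name with earlier results of these data known, so their values and adjusted p-values are a description and are not independent evidence of any pattern. RNA was sequenced from 8 libraries, 2 for each of 4 groups, and all cells had been transduced with a lentiviral shRNA and selected with puromycin at 0.5 µg/mL. The groups were SOX4-shRNA cells given TGF-β for 16 h, SOX4-shRNA cells left untreated, scrambled-shRNA cells given TGF-β for 16 h, and scrambled-shRNA cells left untreated. SOX4 is a transcription factor of the SoxC family, and TGF-β is a secreted factor known to drive epithelial cells towards a mesenchymal state. Only 1 shRNA sequence against SOX4 was used, so an effect of the knockdown and an effect of that shRNA cannot be told apart. Whether the libraries of each group are from separate cultures is not stated, so the p-values cover the spread among these samples alone, and that spread may be technical. One label names polyA RNA and the protocol names a stranded ribosomal-depletion kit, so the RNA fraction is unsure.

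Notch signalling passes between touching cells. A Jagged or Delta ligand on one cell binds a Notch receptor on its neighbour, the receptor is then cut by ADAM proteases and by γ-secretase, and the freed intracellular domain enters the nucleus, where it binds the DNA-binding protein RBPJ and switches on genes such as HES1, HEY1 and NRARP. HES1 and HEY1 are transcriptional repressors, NRARP is a small ankyrin-repeat protein that dampens the signal, and LFNG, lunatic fringe, adds a sugar to Notch receptors that changes which ligands activate them. In the mammary gland, Notch activity is known for guiding progenitors towards the luminal fate, and JAG1 is known as a gene that TGF-β induces in epithelial cells.

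Promoters are shown for the 3 members whose difference passed the test in at least 1 of the fits given below, JAG1, HES1 and NRARP. Each runs from 250 bases before the annotated start to 50 bases after it, is written 5′ to 3′ on the gene's strand, and comes from RefSeq on GRCh38.p14. Capitals mark TGGGAA, the core letters of the RBPJ motif, or its reverse complement TTCCCA. JAG1 is on the minus strand at chr20:10673950-10674249, HES1 on the plus strand at chr3:194135898-194136197, and NRARP on the minus strand at chr9:137302222-137302521.
JAG1: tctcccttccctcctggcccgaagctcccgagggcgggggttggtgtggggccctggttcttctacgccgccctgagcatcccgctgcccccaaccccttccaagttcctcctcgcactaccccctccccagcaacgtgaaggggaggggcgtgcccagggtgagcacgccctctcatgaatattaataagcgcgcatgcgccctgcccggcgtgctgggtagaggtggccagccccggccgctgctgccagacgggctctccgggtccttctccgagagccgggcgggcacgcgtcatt
HES1: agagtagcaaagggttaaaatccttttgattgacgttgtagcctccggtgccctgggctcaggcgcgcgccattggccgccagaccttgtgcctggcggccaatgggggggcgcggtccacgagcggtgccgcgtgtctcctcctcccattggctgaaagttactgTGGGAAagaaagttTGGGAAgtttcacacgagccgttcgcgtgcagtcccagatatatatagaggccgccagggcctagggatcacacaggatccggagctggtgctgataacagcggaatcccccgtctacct
NRARP: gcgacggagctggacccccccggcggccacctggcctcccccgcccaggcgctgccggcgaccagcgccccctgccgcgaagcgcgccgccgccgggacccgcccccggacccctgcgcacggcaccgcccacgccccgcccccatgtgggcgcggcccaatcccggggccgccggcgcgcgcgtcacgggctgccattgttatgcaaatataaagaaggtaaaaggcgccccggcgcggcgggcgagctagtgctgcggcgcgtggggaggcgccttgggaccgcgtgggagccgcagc
In the HES1 promoter the letters occurred at 2 places, beginning 84 and 70 bases before the start, and the first of them is part of the longer run GTGGGAA. They were not found in the JAG1 and NRARP windows. Of 35116 promoters of the same length in the RefSeq table, 24% held TGGGAA and 6.25% held GTGGGAA on either strand, so a match is common. LFNG has 2 annotated promoters, each with 1 TGGGAA match, the JAG2, NOTCH1, NOTCH2 and NOTCH3 windows held none, and no window was searched for DLL1 and HEY1. The letters AACAAAG, a SOX motif, were in 5.2% of all promoters and in none of the 9 searched windows of the members. A match describes letters in a window, not binding.

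Expression is given in FPKM, a read number divided by transcript length and by a library scale, so levels can be compared between genes. Part of the deposited values had lost their decimal mark. For most genes with 1 transcript, and for JAG2 and NOTCH2, it was restored from the whole numbers of reads behind them. For other transcripts, LFNG and HEY1 among them, readings were chosen that kept replicates close and differences between groups small. The library scales corresponded to 12.6 M to 16.8 M reads. SOX4, the targeted gene, was at 2.37 and 1.88 FPKM in TGF-β-treated SOX4-shRNA cells, against 18.7 and 17.6 FPKM in TGF-β-treated scrambled-shRNA cells, and at 0.923 and 1.02 FPKM in untreated SOX4-shRNA cells, against 8.74 and 8.04 FPKM in untreated scrambled-shRNA cells. No SOX4-shRNA library reached the level of a scrambled one, and the means stood at a ratio of 0.12 with and without TGF-β. The basal mammary markers KRT5, KRT14, KRT17 and TP63 summed to 6716 to 6885 FPKM in TGF-β-treated and 5061 to 5942 FPKM in untreated SOX4-shRNA cells, and to 7887 to 8030 FPKM in TGF-β-treated and 7119 to 7832 FPKM in untreated scrambled-shRNA cells. Of these, KRT17 fell with the SOX4 shRNA, by a log2 difference of -1.02 ± 0.12 with TGF-β (limma adjusted p = 0.039) and -1.28 ± 0.12 without (adjusted p = 0.017), and KRT14 rose with TGF-β in SOX4-shRNA cells (0.82 ± 0.13, adjusted p = 0.049). TP63 read at most 23.4 FPKM, so the keratins set the basal sum. The general epithelial markers CDH1, EPCAM, KRT8 and KRT18, without an unsettled KRT18 transcript, were summed with some levels open by a factor of 10. They gave 559 to 572 FPKM in TGF-β-treated and 622 to 637 FPKM in untreated SOX4-shRNA cells. In scrambled-shRNA cells they gave 619 to 628 FPKM with TGF-β and 706 to 779 FPKM untreated. The endothelial and blood markers summed to at most 0.185 and 0.451 FPKM, with CDH5 and CD3E listed at 0. The 3 mural-cell markers, among which CSPG4 reached 12.4 FPKM, summed to 10.6 to 13.6 FPKM in TGF-β-treated and 3.06 to 4.27 FPKM in untreated SOX4-shRNA cells, and to 9.03 to 10.1 FPKM in TGF-β-treated and 4.66 to 5.07 FPKM in untreated scrambled-shRNA cells. RGS5 and PDGFRB reached only 0.266 and 2.18 FPKM, so these sums are mostly CSPG4. With TGF-β, mean PDGFRB was 1 FPKM in SOX4-shRNA and 1.88 FPKM in scrambled-shRNA cells, while mean CSPG4 was 10.9 and 7.55 FPKM. CSPG4 rose with TGF-β in SOX4-shRNA cells (1.66 ± 0.19, limma adjusted p = 0.023) and differed by 0.93 ± 0.19 in scrambled-shRNA cells (adjusted p = 0.12). The part of these marker differences in the results below was not tested. In bulk RNA, fewer cells expressing a gene and less of its RNA per cell cannot be told apart.

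Over all members, JAG1 was the 1 gene that rose with TGF-β in the fit of all 12856 settled transcripts, at ratios of 2.44 and 2.13 in SOX4-shRNA and scrambled-shRNA cells, and no member passed the test for the SOX4 shRNA. Among the 5046 genes with 1 transcript and whole reads, 3 further differences passed: HES1 was higher with TGF-β in SOX4-shRNA cells, NRARP was lower with TGF-β in scrambled-shRNA cells, and NRARP was higher with the SOX4 shRNA in TGF-β-treated cells. None of the 3 passed in the fit of all transcripts. The NRARP difference in scrambled-shRNA cells also passed in some other settings, part of them chosen after seeing the data. Of the 17 member transcripts, 11 were fitted, covering all 10 genes. The other 6 were 5 minor transcripts of NOTCH2, LFNG and HEY1 under 1 FPKM and 1 LFNG transcript whose values could not be settled. HEY1 entered the fit through 2 TGF-β-treated libraries just above 1 FPKM, so its entry depended on the groups where it was high.

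With TGF-β in SOX4-shRNA cells, 1 member rose and none fell (limma, adjusted p under 0.05), where 0.786% of all fitted transcripts rose and 0.0544% fell. With TGF-β in scrambled-shRNA cells, again 1 member rose and none fell, where 0.21% of all transcripts rose and 0.0233% fell. Among the 6 members in the whole-read fit, 2 passed in SOX4-shRNA cells, both higher, where 5.43% of genes passed in that direction, and 2 passed in scrambled-shRNA cells, 1 higher and 1 lower, where 4.44% and 2.1% of genes did. For the SOX4 shRNA, limma called 0 members in untreated cells and 0 with TGF-β, where 0.288% and 0.358% of all transcripts passed in either direction; at an unadjusted p under 0.05 there was 1 of the 11 transcripts in untreated cells, lower, where 6.44% of all were, and 2 with TGF-β, 1 lower and 1 higher, where 6.18% and 4.36% of all were. In the whole-read fit the SOX4 shRNA gave 0 calls among members in untreated cells, where 3.98% of genes passed, and 1 with TGF-β, where 1.09% of genes passed in the direction of that call. Since the members were chosen knowing such values, nothing is read from these shares. The median log2 difference of the 11 transcripts was 0.02 and -0.07 for TGF-β in SOX4-shRNA and scrambled-shRNA cells, and the medians over all transcripts were -0.03 in each. For the SOX4 shRNA the members' median was -0.07 in untreated cells and 0.00 with TGF-β, against 0.00 and 0.01 over all transcripts. Counted by libraries that did not overlap, TGF-β in SOX4-shRNA cells left 4 of the 11 transcripts higher and 2 lower, where 17.4% and 21.3% of all transcripts were, and in scrambled-shRNA cells 4 higher and 4 lower, where 24% and 28.7% were. HEY1, which entered the fit through TGF-β-treated libraries, is 1 of the 4 higher ones in both kinds of cell. The SOX4 shRNA left 1 higher and 3 lower in untreated cells, where 20.5% and 19.8% of all transcripts were, and 4 higher and 2 lower with TGF-β, where 19.9% and 20.5% were. Each group serves in more than 1 of these comparisons, so they share libraries.

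**Figure D1:**
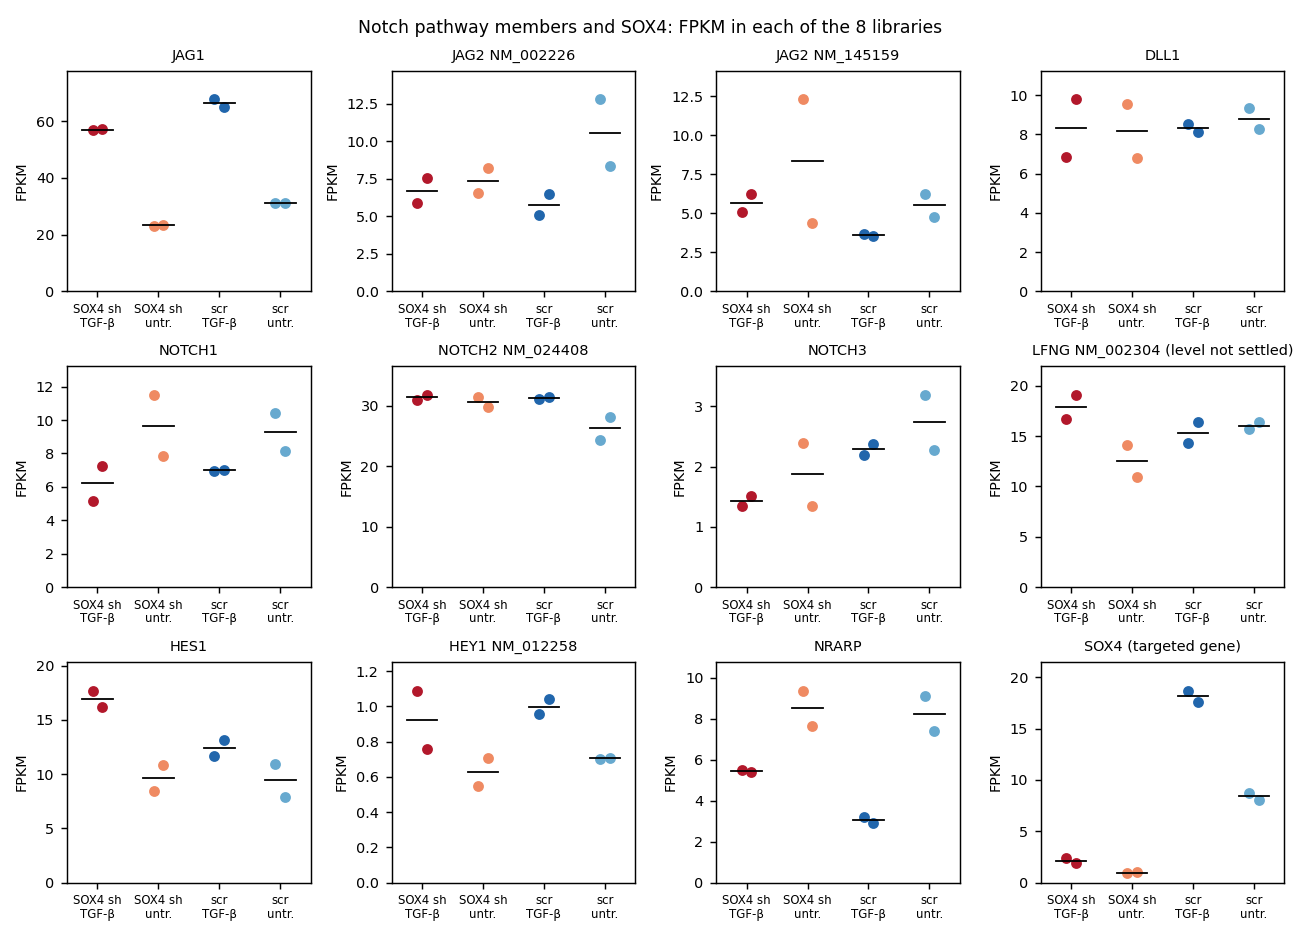
FPKM (linear axes from 0 that differ between panels) of the 11 fitted member transcripts and SOX4 in each library (points, 2 per group) with the mean of each group (lines), for SOX4-shRNA cells in reds and scrambled-shRNA cells in blues. JAG1 lay at 56.8 to 67.6 FPKM in the 4 TGF-β-treated libraries and at 23.2 to 31.1 FPKM in the 4 untreated ones. For LFNG the whole panel may stand 10 times too high.

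JAG1, a Jagged ligand, had the highest mean level of the members over the 8 libraries, 44.4 FPKM. It was at 56.8 and 57.1 FPKM in TGF-β-treated SOX4-shRNA cells, against 23.2 and 23.3 FPKM in untreated ones. TGF-β-treated scrambled-shRNA cells had 67.6 and 64.8 FPKM, against 31.1 and 31.0 FPKM in untreated ones. These values rest on 1867 to 5818 reads per library, and no treated library overlapped an untreated one. The ratio of means was 2.44 in SOX4-shRNA cells and 2.13 in scrambled-shRNA cells, and the log2 difference, on the log2(FPKM + 1) scale as all differences here, was 1.25 ± 0.09 (SE; limma adjusted p = 0.0058) and 1.07 ± 0.09 (adjusted p = 0.013). The alternative settings counted for each member include the open readings at the next lower level and the crossed replicate block. Both were chosen after seeing the data. In SOX4-shRNA cells, 19 of 20 alternative settings kept an adjusted p under 0.05 (range 0.00062 to 0.16). In scrambled-shRNA cells only 13 of 20 did (range 0.0017 to 0.14), and leaving out any 1 of the 4 scrambled-shRNA libraries took limma's adjusted p above 0.05, while the log2 difference stayed between 1.04 and 1.10 in all of them.

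Both SOX4-shRNA groups lay below their scrambled-shRNA counterparts in JAG1, without overlap. The ratio of means was 0.75 in untreated cells, with a log2 difference of -0.40 ± 0.09 (limma adjusted p = 0.18), and 0.86 with TGF-β, with a log2 difference of -0.21 ± 0.09 (adjusted p = 0.46). Neither passed the test. With no filter on low values the first reached an adjusted p of 0.024, and over the 20 alternatives it ran from 0.024 to 0.55. JAG1 has 26 exons on chromosome 20 at 10618332 to 10654647, minus strand (GRCh37), and another annotated gene has exon overlap with it on the opposite strand. Whether counting used the strand is not given in the sources used here, so reads of such a partner could be included, as also for NRARP, DLL1 and SOX4. An exon of another annotated gene overlaps JAG2 on the same strand, whose reads counting by strand would not separate.

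JAG2, the second Jagged ligand, has 2 transcripts in the table, NM_002226 and the shorter NM_145159, whose reads were split between them by the authors' software. The full transcript NM_002226 had 5.90 and 7.55 FPKM in TGF-β-treated and 6.55 and 8.22 FPKM in untreated SOX4-shRNA cells, and 5.07 and 6.52 FPKM in TGF-β-treated and 12.8 and 8.34 FPKM in untreated scrambled-shRNA cells. NM_145159 had 5.06 and 6.27 FPKM in TGF-β-treated and 12.3 and 4.4 FPKM in untreated SOX4-shRNA cells, and 3.71 and 3.55 FPKM in TGF-β-treated and 6.24 and 4.80 FPKM in untreated scrambled-shRNA cells. Both transcripts were lower with TGF-β in scrambled-shRNA cells without overlap, and overlapped between the treatments in SOX4-shRNA cells. The share of JAG2 reads given to NM_145159 was 64.8% in untreated SOX4-shRNA replicate 1 and 32.3% to 45.6% in the other 7 libraries, so that library stands apart in the split. Without it, the log2 difference of NM_145159 for TGF-β in SOX4-shRNA cells was 0.30 instead of -0.35 ± 0.39 (limma adjusted p = 0.76 with all libraries), and that for the SOX4 shRNA in untreated cells was -0.26 instead of 0.39 ± 0.39 (adjusted p = 0.76), so neither has a settled direction. Summed over both transcripts, JAG2 was at 8.78 and 10.1 FPKM in TGF-β-treated scrambled-shRNA cells, against 19 and 13.1 FPKM in untreated ones (log2 difference -0.69 ± 0.23, limma adjusted p = 0.14 among summed genes), which did not pass the test. The matching sums in SOX4-shRNA cells were 11 and 13.8 FPKM with TGF-β, against 18.9 and 12.6 FPKM untreated (-0.30 ± 0.23, limma adjusted p = 0.51).

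DLL1, a Delta-like ligand, showed no separation between groups. It had 6.86 and 9.78 FPKM in TGF-β-treated and 9.54 and 6.78 FPKM in untreated SOX4-shRNA cells, and 8.55 and 8.10 FPKM in TGF-β-treated and 9.34 and 8.25 FPKM in untreated scrambled-shRNA cells. All groups overlapped in every comparison, and the log2 differences lay between -0.11 and 0.02, each with an SE of 0.21.

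Among the receptors, NOTCH2 stood highest in every library. Its transcript NM_024408 had 31.0 and 31.8 FPKM in TGF-β-treated and 31.5 and 29.8 FPKM in untreated SOX4-shRNA cells, and 31.1 and 31.5 FPKM in TGF-β-treated and 24.4 and 28.1 FPKM in untreated scrambled-shRNA cells. The untreated scrambled-shRNA group was the low one. TGF-β went with a log2 difference of 0.25 ± 0.11 in scrambled-shRNA cells (limma adjusted p = 0.35) and 0.03 ± 0.11 in SOX4-shRNA cells (adjusted p = 0.93). The shorter NOTCH2 transcript NM_001200001 had at most 7 reads and 0.106 FPKM in any library. NOTCH2 has near-identical partial copies, the NOTCH2NL genes, so reads may be split between them and its level is uncertain.

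NOTCH1 had 5.16 and 7.24 FPKM in TGF-β-treated SOX4-shRNA cells, against 11.5 and 7.82 FPKM in untreated ones. In scrambled-shRNA cells it had 6.97 and 6.99 FPKM with TGF-β, against 10.4 and 8.12 FPKM untreated. In both kinds of cell the treated libraries lay below the untreated ones, and in both the untreated pair was far apart. The log2 differences were -0.56 ± 0.23 in SOX4-shRNA cells (limma adjusted p = 0.33) and -0.35 ± 0.23 in scrambled-shRNA cells (adjusted p = 0.54), and neither passed the test. Without and with TGF-β, the SOX4-shRNA and scrambled-shRNA libraries overlapped.

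NOTCH3, a receptor best known from vascular smooth muscle, was the lowest of the 3 receptors, on 149 to 421 reads per library. It had 1.35 and 1.52 FPKM in TGF-β-treated SOX4-shRNA cells, against 2.2 and 2.37 FPKM in TGF-β-treated scrambled-shRNA cells. Untreated SOX4-shRNA cells had 2.40 and 1.35 FPKM, against 3.19 and 2.28 FPKM in untreated scrambled-shRNA cells. The TGF-β-treated groups did not overlap, while the untreated ones did. The ratio of means for the SOX4 shRNA was 0.63 with TGF-β and 0.68 without, and the log2 differences of -0.43 ± 0.22 (limma adjusted p = 0.58) and -0.39 ± 0.22 (adjusted p = 0.56) did not pass the test.

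LFNG is the one member whose level is not settled. Its main transcript NM_002304 read 16.7 and 19.1 FPKM in TGF-β-treated and 14.1 and 10.9 FPKM in untreated SOX4-shRNA cells, and 14.3 and 16.4 FPKM in TGF-β-treated and 15.7 and 16.4 FPKM in untreated scrambled-shRNA cells, or 10 times less in all 8 libraries. The pattern across libraries is the same at either level, and the differences below use the higher one. In SOX4-shRNA cells the treated libraries lay above the untreated ones, at a ratio of means of 1.43 and a log2 difference of 0.49 ± 0.15 (limma adjusted p = 0.23), while in scrambled-shRNA cells they overlapped, at a ratio of 0.96. The SOX4-shRNA libraries were below the scrambled ones when untreated and above them with TGF-β, without overlap in either case, with log2 differences of -0.34 ± 0.15 (limma adjusted p = 0.46) and 0.21 ± 0.15 (adjusted p = 0.77) that did not pass the test. Among the other LFNG transcripts, NM_001040167 could not be settled, NM_001040168 was at most 0.541 FPKM, and NM_001166355 stood in damaged exponent notation in all 8 libraries and was set to 0.

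HES1, the repressor that is the best-known direct Notch target, had 17.7 and 16.2 FPKM in TGF-β-treated SOX4-shRNA cells, against 8.40 and 10.8 FPKM in untreated ones. Scrambled-shRNA cells had 11.7 and 13.1 FPKM with TGF-β, against 10.9 and 7.93 FPKM untreated. These levels rest on 126 to 312 reads per library. In both kinds of cell the treated libraries lay above the untreated ones, and with TGF-β the SOX4-shRNA libraries lay above the scrambled ones. That SOX4-shRNA difference, 0.42 ± 0.19 on the log2 scale (limma adjusted p = 0.5), did not pass the test, nor in any of 20 alternatives. TGF-β went with a ratio of means of 1.77 in SOX4-shRNA cells (log2 difference 0.77 ± 0.19, limma adjusted p = 0.15) and 1.32 in scrambled-shRNA cells (0.38 ± 0.19, adjusted p = 0.42). The first passed in the whole-read fit (0.77 ± 0.17, limma adjusted p = 0.037), which was the 1 alternative of 20 in which it did (range 0.037 to 0.46). Of the other 19 the fit of summed genes came nearest, at 0.051.

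HEY1, a repressor of the same family, was the lowest member. Its transcript NM_012258 had 1.09 and 0.758 FPKM in TGF-β-treated and 0.547 and 0.709 FPKM in untreated SOX4-shRNA cells, and 0.955 and 1.04 FPKM in TGF-β-treated and 0.704 and 0.708 FPKM in untreated scrambled-shRNA cells. The treated libraries lay above the untreated ones in both kinds of cell, at ratios of means of 1.47 and 1.42. HEY1 entered the fit only through the treated values 1.09 and 1.04 FPKM, so this separation is not independent of the filter. Those values had lost their decimal mark and were read without whole reads. At this level the added 1 FPKM shrinks differences, which were 0.24 ± 0.16 and 0.23 ± 0.16 (limma adjusted p = 0.56 and 0.57). The remaining HEY1 transcripts stayed at or below 0.266 FPKM.

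NRARP, the feedback inhibitor and a direct Notch target, differed in the opposite direction to JAG1 and HES1 with TGF-β. It had 5.47 and 5.37 FPKM in TGF-β-treated SOX4-shRNA cells, against 9.37 and 7.65 FPKM in untreated ones, and 3.20 and 2.89 FPKM in TGF-β-treated scrambled-shRNA cells, against 9.09 and 7.37 FPKM in untreated ones. All 4 treated libraries lay below all 4 untreated ones, and the treated SOX4-shRNA pair lay above the treated scrambled pair, while the untreated pairs overlapped. The values rest on 96 to 369 reads per library.

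In scrambled-shRNA cells TGF-β brought NRARP to 0.37 of its untreated mean, a log2 difference of -1.19 ± 0.16 (limma adjusted p = 0.052), just outside the threshold. It passed in 6 of 20 alternatives, the whole-read fit among them (-1.19 ± 0.14, limma adjusted p = 0.0055), with a range of 0.0055 to 0.3. Those 6 include the open readings at the next lower level and the crossed replicate block, both chosen after seeing the data. In SOX4-shRNA cells the ratio of means was 0.64 and the log2 difference -0.56 ± 0.16 (limma adjusted p = 0.18; 0.054 in the whole-read fit). With TGF-β, NRARP in SOX4-shRNA cells was 1.78 times its level in scrambled-shRNA cells (0.67 ± 0.16, limma adjusted p = 0.21), which passed only in the whole-read fit (0.67 ± 0.14, adjusted p = 0.044; range over 20 alternatives 0.044 to 0.79). Without TGF-β the ratio was 1.03. NRARP has a single exon on chromosome 9 at 140194083 to 140196723, minus strand (GRCh37), overlapped on the opposite strand.

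**Figure D2:**
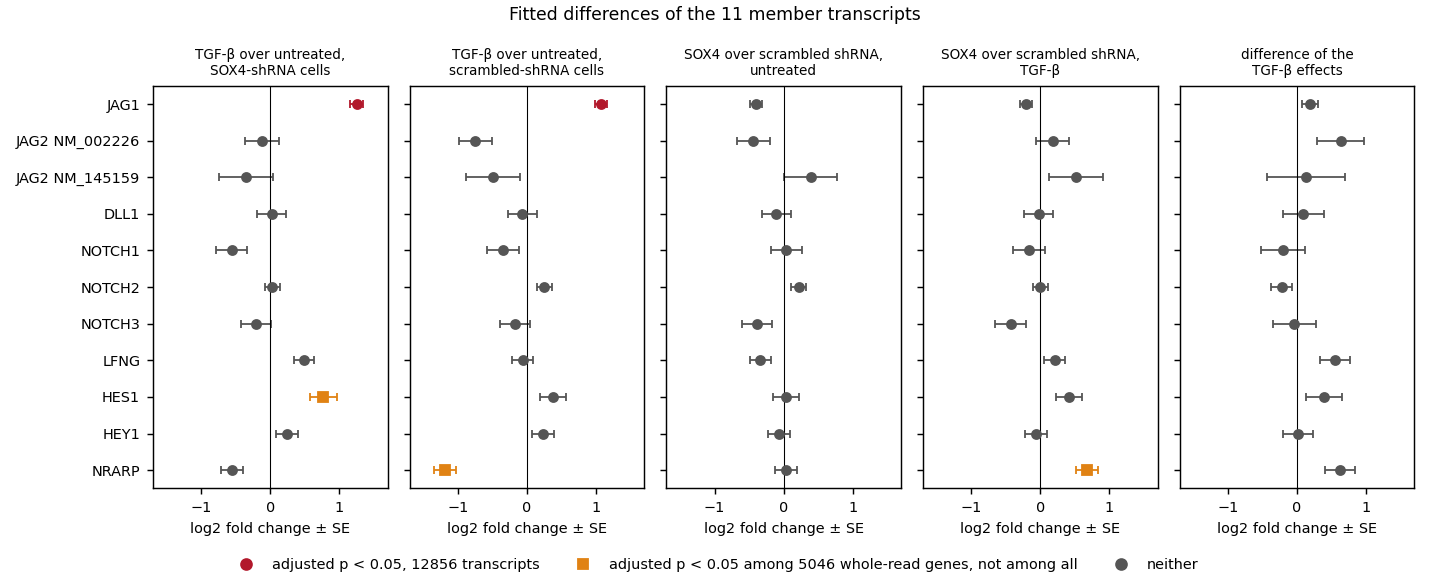
Log2 differences on the log2(FPKM + 1) scale (points) with their SE (bars) of the 11 member transcripts in the 5 comparisons, with the first-named group over the second. JAG1 with TGF-β is the red point in the left 2 panels, at 1.25 and 1.07, and the squares mark HES1 (0.77) and NRARP (-1.19 and 0.67), which passed in the whole-read fit and not in the fit of all transcripts.

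The TGF-β response of each member was compared directly, as the response in SOX4-shRNA cells minus that in scrambled-shRNA cells. Limma called 0 of the 11 member transcripts, where 0.0233% of all transcripts were called, and the whole-read fit also called 0, where 0.0595% of genes were. At an unadjusted p under 0.05 there were 2 of 11 transcripts, both higher, where 0.988% of all transcripts were, NRARP at 0.62 ± 0.22 and LFNG at 0.55 ± 0.22 (limma adjusted p = 1 for each). JAG1 differed by 0.19 ± 0.12 and HES1 by 0.39 ± 0.26 (limma adjusted p = 1 for each). So a larger TGF-β difference of HES1, or a smaller one of NRARP, in SOX4-shRNA cells was not detectable at this number of libraries.

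The members also differed in how closely the libraries of a group matched. In scrambled-shRNA cells with TGF-β, replicate 1 over replicate 2 ran from 0.78 to 1.11 over the 11 transcripts, while in untreated SOX4-shRNA cells it ran from 0.77 to 2.8. Replicate 1 was the higher one for 3 of 11 transcripts in TGF-β-treated and 7 of 11 in untreated SOX4-shRNA cells, and for 4 and 7 of 11 in TGF-β-treated and untreated scrambled-shRNA cells. DLL1, NOTCH1, NOTCH3, NRARP and the JAG2 transcript NM_145159 were higher in replicate 1 of both untreated groups, HEY1 was lower in it in both, and the others were mixed. Across 5046 transcripts the replicate differences of the untreated groups also went together (r = 0.51). The shares over all transcripts were not counted, so these counts are not read as a trait of the members. JAG1 and NOTCH2 had SDs of 0.2 and 0.518 FPKM in TGF-β-treated SOX4-shRNA cells, against 2.01 and 0.264 FPKM in TGF-β-treated scrambled-shRNA cells (n = 2 each).

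Of 49 other genes of the pathway, listed by role, 48 are in the table and 33 were fitted, with 42 transcripts. In the fit of all transcripts, NEURL1B rose with TGF-β in SOX4-shRNA cells and was the 1 gene of the 33 that passed in any comparison. It encodes a ubiquitin ligase of the Neuralized family, which in flies promotes the uptake of Notch ligands. The whole-read fit, given above for members, was not read for these other genes, so whether more of them pass in it is not known. NEURL1B had 7.18 and 6.61 FPKM in TGF-β-treated SOX4-shRNA cells, against 1.94 and 1.30 FPKM in untreated ones, a ratio of means of 4.26 and a log2 difference of 1.60 ± 0.16 (limma adjusted p = 0.016). In scrambled-shRNA cells it had 3.87 and 3.41 FPKM with TGF-β, against 1.30 and 1.34 FPKM untreated, a ratio of 2.76 (1.0 ± 0.16, limma adjusted p = 0.086). The difference between those responses was 0.60 ± 0.23 (limma adjusted p = 1). MIB1, the other fitted ligand ubiquitin ligase, had 10.2 to 12.2 FPKM in the TGF-β-treated SOX4-shRNA libraries and 9.24 to 13.9 FPKM over the other 6.

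Other named genes, taken as the highest expressed of their role, did not pass the test in any comparison in the fit of all transcripts. DNER, a membrane protein reported to bind Notch, had 2.63 and 2.81 FPKM in TGF-β-treated SOX4-shRNA cells, against 5.78 and 7.21 FPKM in TGF-β-treated scrambled-shRNA cells (-1.0 ± 0.14, limma adjusted p = 0.061). Without TGF-β it had 3.63 and 3.32 FPKM in SOX4-shRNA cells, against 5.40 and 5.57 FPKM in scrambled-shRNA cells (-0.54 ± 0.14, limma adjusted p = 0.24). DNER was lower in each of the 4 SOX4-shRNA libraries than in any scrambled one, though neither difference passed the test. CCND1, a cyclin reported as a Notch target, had 108 and 112 FPKM in TGF-β-treated and 82.5 and 77.7 FPKM in untreated SOX4-shRNA cells (0.45 ± 0.09, limma adjusted p = 0.093), and 107 and 106 FPKM in TGF-β-treated and 85.8 and 80.1 FPKM in untreated scrambled-shRNA cells (0.36 ± 0.09, adjusted p = 0.16). MYC, another reported target, had 111 and 123 FPKM in TGF-β-treated and 176 and 132 FPKM in untreated SOX4-shRNA cells, and 94.5 and 95.4 FPKM in TGF-β-treated and 164 and 134 FPKM in untreated scrambled-shRNA cells (log2 differences -0.38 ± 0.16 and -0.64 ± 0.16, limma adjusted p = 0.36 and 0.17). In both genes the treated and untreated libraries of each kind of cell did not overlap.

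Some further genes of the machinery were also expressed. ADAM10, the protease of the first receptor cut, had 32.2 to 45.2 FPKM in the TGF-β-treated SOX4-shRNA libraries and 32.1 to 41.3 FPKM in the other 6. The nuclear cofactor SNW1 had 46.9 to 64.1 and 45.9 to 61.2 FPKM in the same sets of libraries, the fringe enzyme RFNG 5.59 to 10.2 and 5.11 to 8.81 FPKM, and the Deltex-family ligase DTX3L 9.34 to 12.6 and 8.11 to 13.5 FPKM. None of these passed the test in any comparison in the fit of all transcripts. DLK2, POFUT1, APH1B, RBPJ and NUMB were also among the highest of their roles, but the level of at least 1 of their transcripts is not settled, and no value is given. For TGF-β, the median log2 difference of the 42 transcripts was 0.06 in SOX4-shRNA cells and 0.11 in scrambled-shRNA cells, against -0.03 over all transcripts in each, and for the SOX4 shRNA it was 0.02 in untreated and 0.04 in TGF-β-treated cells. NOTCH4, DLL4, DLL3, DLK1, HEY2, HEYL and HES5 were each under 1 FPKM in all 8 libraries.

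**Figure D3:**
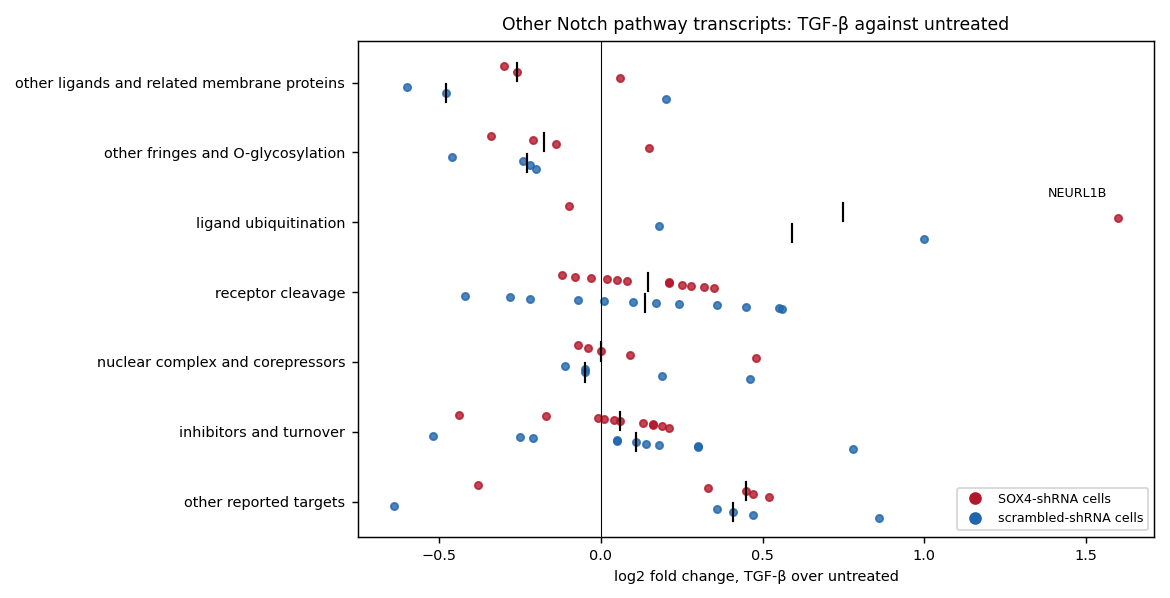
Log2 difference (TGF-β over untreated, log2(FPKM + 1) scale) of the 42 fitted transcripts of other Notch pathway genes by role, in SOX4-shRNA cells (red) and scrambled-shRNA cells (blue); points are transcripts and black bars medians. NEURL1B stands out at 1.60 in SOX4-shRNA cells and 1.0 in scrambled-shRNA cells.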

How the data were processed

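RNA sequencing values came from 8 libraries of HMLE cells in 4 groups of 2, grouped by their titles. The submitters' processing notes name hg19 as the build, and as tools Cuffdiff, Cufflinks 2.2.1 and TopHat2 2.0.9. Libraries were read as 75-nt single reads, per the labels' protocols. The deposited table holds 48175 RefSeq transcripts, and its values are taken as FPKM by the authors from the tools named and the values themselves; how libraries were scaled, and whether strand was used, is not stated there. In 34.1% of the cells, from 1 up to 1000 FPKM, the decimal mark was lost, which leaves up to 3 possible values 10 times apart, and 13.9% were in damaged exponent notation and set to 0. Other cells were used as they stand. The unit is therefore recorded as a damaged FPKM table.

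Marks were restored with Python by searching for whole numbers of reads: for genes with 1 transcript, a length was searched at which at least 6 of 8 cells came out whole to within 0.002 reads, with an allowance for rounded digits, which worked for 5165 of 5632 genes (91.7%). Readings were weighed with the spread between libraries and the level. Close replicates, small effects of TGF-β and of the shRNA, and similar TGF-β responses were favoured. For transcripts without whole reads, LFNG and HEY1 among them, this weighing alone chose between readings a factor of 10 apart. Their spread and differences, and the shares over all transcripts, thus partly follow from it. Of 19396 transcripts at 1 FPKM or more in at least 2 libraries, 12856 were settled. Settled means that the pattern across the 8 libraries had a posterior of at least 0.95. That value does not cover the common level, which stays unsure by a factor of 10 for some fitted transcripts, among them LFNG NM_002304. Transcripts of JAG2 and NOTCH2 were settled from the joint reads of both their transcripts. The steps were tested on simulated data for genes with 1 transcript and whole reads only. That test did not cover the joint search or other genes with several transcripts. Settled transcripts entered limma 3.58.1 (R 4.3.3) as log2(FPKM + 1), in 1 fit of the 4 groups with an intensity trend and 4 residual degrees of freedom, adjusted by Benjamini-Hochberg over all transcripts, with calls under 0.05. This scale understates changes of low genes. A fit of the 5046 genes with 1 transcript and whole reads, as filtered, is given beside it for members where it changes a call. It was not read for the markers and the other pathway genes. Symbols were matched for 47097 transcripts (97.8%).

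The members and the gene lists were chosen with earlier results of these data known. Besides the 10 members and SOX4, the text names pathway genes called in any comparison and, per role, the 2 with the highest mean FPKM. Coordinates of members follow the GRCh37 lift of GENCODE 44 (the hg19 assembly), and promoters from RefSeq on GRCh38.p14. Samples with the same replicate number are not stated to be paired.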

Additional observations from a re-analysis of the deposited data

How the results depend on the processing

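The number of limma's calls moved with the setting. Over all settings, 992 of the values for members kept their direction and side of the threshold, 8 lost the call, 9 gained it and 40 changed sign. The 40 belong to 23 differences, of which 0 passed the test with all libraries (lowest limma adjusted p = 0.73), and 37 of the 40 arose on leaving out 1 library. In the order TGF-β in SOX4-shRNA cells, TGF-β in scrambled-shRNA cells, SOX4 shRNA in untreated cells and SOX4 shRNA with TGF-β, the counts of called transcripts were 108, 30, 37 and 46. They were 221, 196, 139 and 148 with no filter on low values, 382, 330, 201 and 186 among genes with 1 transcript and whole reads, 358, 312, 179 and 159 with transcripts summed per gene, and 6, 2, 3 and 5 when only the groups compared entered the fit, where 2 residual degrees of freedom were left. The difference between TGF-β responses had 3 calls and 79 with no filter. With open readings at the next higher level the TGF-β counts were 69 and 11, and at the next lower level, chosen after seeing the data, the scrambled-shRNA count was 49. It was 51 under median-ratio scaling. For the SOX4 shRNA with TGF-β the count was 26 with 0.1 FPKM added and 23 with at least 1 FPKM in all 8 libraries. Leaving out 1 library at a time gave 20 to 51, 13 to 37, 16 to 42 and 13 to 30 calls, and 5 to 15 for the difference between responses. The cause of these shifts was not tested.

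Leaving out 1 library at a time, the log2 differences for TGF-β in SOX4-shRNA cells that changed sign ran from -0.48 to 0.05 for NOTCH3, -0.27 to 0.04 for JAG2 NM_002226, -0.20 to 0.25 for DLL1, -0.01 to 0.07 for NOTCH2 and -1.0 to 0.30 for JAG2 NM_145159. Leaving out 1 library at a time, the log2 differences for TGF-β in scrambled-shRNA cells that changed sign ran from -0.35 to 0.00 for NOTCH3, -0.15 to 0.03 for LFNG and -0.15 to 0.01 for DLL1. Leaving out 1 library at a time, the log2 differences for the SOX4 shRNA in untreated cells that changed sign ran from -0.09 to 0.18 for NRARP, -0.18 to 0.24 for HES1, -0.33 to 0.11 for DLL1, -0.14 to 0.00 for HEY1, -0.21 to 0.29 for NOTCH1 and -0.26 to 1.04 for JAG2 NM_145159. Leaving out 1 library at a time, the log2 differences for the SOX4 shRNA with TGF-β that changed sign ran from -0.25 to 0.21 for DLL1, -0.19 to 0.07 for HEY1, -0.37 to 0.05 for NOTCH1 and -0.01 to 0.02 for NOTCH2. Leaving out 1 library at a time, the log2 differences for the difference between TGF-β responses that changed sign ran from -0.30 to 0.23 for NOTCH3, -0.14 to 0.32 for DLL1, -0.12 to 0.14 for HEY1, -0.45 to 0.05 for NOTCH1 and -0.52 to 0.78 for JAG2 NM_145159. With transcripts summed, HEY1 had 0.04 for the SOX4 shRNA in untreated cells and -0.05 for the difference between responses, and with median-ratio scaling NOTCH2 had -0.01 for the SOX4 shRNA with TGF-β.

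With a replicate block the counts were 20, 6, 16 and 6, and JAG1 in scrambled-shRNA cells had a limma adjusted p of 0.093. Same-numbered libraries deviated together between SOX4-shRNA and scrambled-shRNA cells (r = 0.51 untreated and 0.36 with TGF-β, across 5046 transcripts, which are not independent). Between treatments they deviated oppositely (-0.60 in SOX4-shRNA and -0.24 in scrambled-shRNA cells). Across both treatment and kind of cell r was -0.39 and -0.38. The numbers are thus not shown to pair the samples, while the main fit took the libraries of different groups as unrelated. The crossed replicate block, chosen after seeing the data, gave 294, 121, 71 and 63 calls. With it, NRARP for TGF-β in scrambled-shRNA cells had a limma adjusted p of 0.04. With 2 libraries per group, small differences were not detectable, and NRARP and HES1 had the lowest read numbers among members whose reads were recovered.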
